A study of Mus musculus with 12 samples.

Results

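The genes described here are 9 of the 84 genes on a glycosylation PCR array, measured in mouse dendritic cells. They encode the enzymes that trim glucose from new N-glycans in the endoplasmic reticulum (ER) and those that sort folded from misfolded glycoproteins there. They are Mogs, Ganab, Prkcsh, Uggt1, Uggt2, Edem1, Edem2, Edem3 and Man1b1. The rule for choosing them names their function and no measured value, although earlier results of these data were known when it was written.

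A new N-glycan reaches the growing protein with a branch that ends in glucose residues. Glucosidase I removes the outermost glucose and glucosidase II the inner ones. While the last glucose remains, the lectins calnexin and calreticulin can hold the protein as it folds. A protein that is still unfolded is given a glucose back by a folding sensor and returns to the lectins, whereas slow removal of mannose marks a protein that stays misfolded for export to the cytosol and degradation. Dendritic cells pass large amounts of glycoprotein through the ER, among them the MHC molecules that display antigen.

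The cells formed 4 groups. Unstimulated DC2.4 cells are an immortalized mouse dendritic line. TGF-beta DC2.4 cells are the same line after 4 days of that cytokine, for which one protocol in the labels gives 2.5 ng/ml and another 10 ng/ml. Splenic DC1 cells, the dendritic subset that cross-presents antigen to CD8 T cells, were sorted from mouse spleen and are labelled XCR-1-positive. Tumor DC1 cells were sorted from MCA101 fibrosarcomas grown under the skin and are labelled CD103-positive, so the effects of tissue and of sort marker cannot be told apart. The labels give neither the strain, sex and age of the mice nor whether animals were pooled, and DC2.4 is 1 line, so DC1 and DC2.4 cells differ in origin, culture and sorting together. The array holds 0 of 7 DC1 marker genes and 0 of 13 markers of other cells listed for a check, so the labelled cell types could not be checked against it. In such bulk samples, fewer cells of a type and less RNA per cell cannot be told apart.

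The measurement was the threshold cycle (Ct), which comes earlier the more template a well holds. Each group has 3 deposited samples, but the third held the mean Ct of the first 2 times or divided by a constant in 319 of 355 wells, and in 36 of 36 wells of the genes described here. Among the 36, tumor Uggt2, matches only with the blank well of the second sample taken as 0 cycles. The tests therefore used the first 2 samples of each group (n = 2). Whether these are separate cultures or animals is not stated, so p-values reflect the spread between samples alone, and that spread may be technical. In these 8 samples 64 to 76 of the 84 genes had a Ct under 35. The mean Ct of the 5 reference wells ran from 17.0 in the second sample of both DC2.4 groups to 24.3 in the second splenic sample. Relative levels below are that mean minus the gene's Ct, on a log2 scale on which 1 unit is 1 cycle. Primers differ in efficiency, so levels are compared between samples and not between genes.

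Mogs, the ER glucosidase I that removes the outermost glucose, had relative log2 levels of -5.25 and -6.02 in unstimulated cells, -5.13 and -6.58 with TGF-beta, -5.67 and -7.31 in splenic DC1 and -6.0 and -5.58 in tumor DC1. The second splenic sample was the lowest of the 8, and every neighbouring pair in the order unstimulated, tumor, TGF-beta, splenic overlapped. Ganab, the catalytic alpha subunit of glucosidase II, stood at -3.89 and -4.02 in unstimulated cells, -3.60 and -3.91 with TGF-beta, -4.01 and -5.13 in splenic DC1 and -4.25 and -4.73 in tumor DC1. Both DC2.4 groups had higher means than both DC1 groups, although the first splenic sample lay at the lower edge of the unstimulated cells. Prkcsh, the beta subunit that holds the alpha subunit in the ER, stood at -4.28 and -4.07 in unstimulated cells, -3.70 and -3.93 with TGF-beta, -4.42 and -5.78 in splenic DC1 and -5.36 and -5.30 in tumor DC1. Its 4 DC2.4 samples all lay above its 4 DC1 samples. The second splenic sample was the lowest for all 3 glucosidase genes, and the same sample had the highest reference Ct of the 8.

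**Figure D1:**
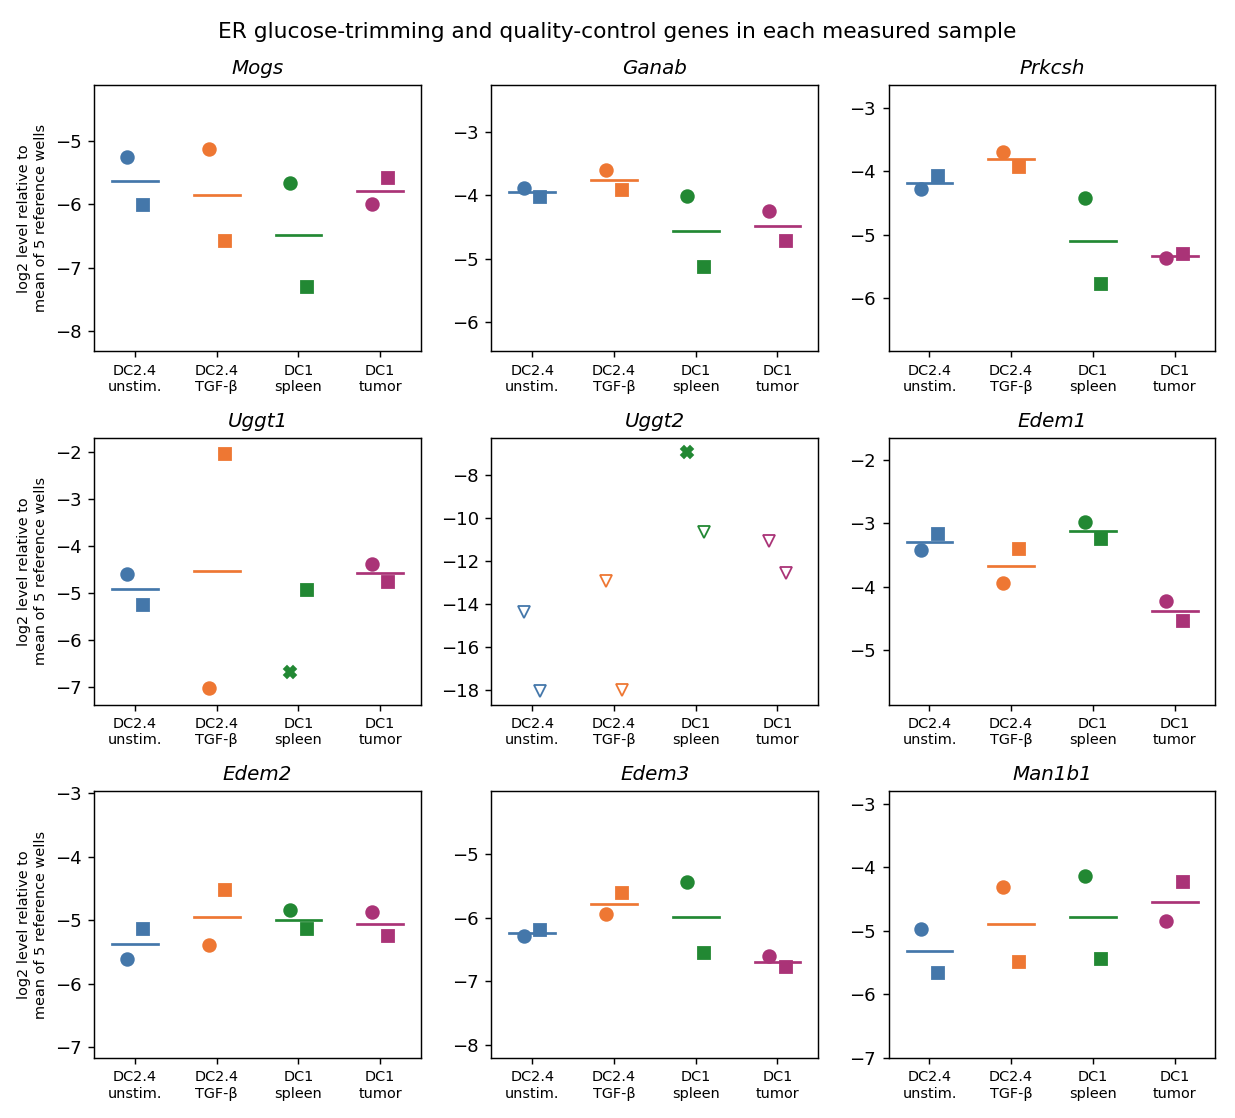
Relative log2 level (mean reference Ct minus gene Ct, y axis) of each of the 9 genes in the 4 groups. Circles are replicate 1, squares replicate 2 and bars their mean; crosses mark doubtful wells of the first splenic sample and open triangles wells at Ct 35 or later, or blank, set to 35. Prkcsh shows its DC2.4 samples above its DC1 samples, Edem1 its tumor samples below all others, and Uggt1 a gap between both TGF-beta samples.

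Uggt1, the main folding sensor that returns a glucose to unfolded glycoproteins, was the least reproducible of the genes. Its relative log2 levels were -4.58 and -5.25 in unstimulated cells and -4.39 and -4.76 in tumor DC1. With TGF-beta they were -7.03 and -2.04, from a Ct of 29.1 in one sample and 19.0 in the other, so the treated samples lay on both sides of every other undoubted sample. In splenic DC1 the second sample was at -4.93, whereas the first, at -6.69, came from a well listed at exactly 29 cycles among 7 neighbouring wells with whole or repeated values, and it was left out of the splenic comparisons.

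Uggt2, a second glucosyltransferase of the same family, gave no usable level. Its Ct was 35.8 and 37.0 in unstimulated cells, 38.7 and 38.2 with TGF-beta and 35.2 in the second splenic sample, and 35.1 and blank in tumor DC1. All 7 of these wells were therefore later than 35 cycles or blank. The first splenic sample listed 29.3 cycles, but that value repeats the one listed for Uggt1 in the second splenic sample and is doubtful. Uggt2 did not enter the tests, apart from the TGF-beta comparison without a filter, where it differed by 0.73 ± 2.38 from levels set by that limit (limma adjusted p = 0.97).

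Man1b1, the ER mannosidase that starts mannose trimming, had relative log2 levels of -4.97 and -5.67 in unstimulated cells, -4.31 and -5.49 with TGF-beta, -4.14 and -5.44 in splenic DC1 and -4.85 and -4.23 in tumor DC1. Neighbouring groups overlapped throughout the order tumor, splenic, TGF-beta, unstimulated. Edem2, the mannosidase-family protein known in human cells to take the first mannose step of degradation, stood at -5.61 and -5.13 in unstimulated cells, -5.38 and -4.52 with TGF-beta, -4.84 and -5.14 in splenic DC1 and -4.86 and -5.25 in tumor DC1. Its groups overlapped as well, and no group stood apart.

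Edem1, which carries misfolded glycoproteins towards degradation, stood at -3.42 and -3.17 in unstimulated cells, -3.93 and -3.40 with TGF-beta, -2.97 and -3.25 in splenic DC1 and -4.22 and -4.54 in tumor DC1. Both tumor samples were lower than the other 6 samples. Edem3, which trims mannose further, stood at -6.29 and -6.19 in unstimulated cells, -5.95 and -5.61 with TGF-beta, -5.43 and -6.56 in splenic DC1 and -6.60 and -6.79 in tumor DC1. Its tumor samples too were the lowest, though the second splenic sample lay close to them.

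Edem1 is a textbook target of the ER stress response, and Edem1 and Edem2 are the pair whose ratio is followed below, so their promoters are shown. The sequences are the 250 bases before the start that the RefSeq promoter table (GRCm38.p6) uses for each gene, 5′ to 3′ on the gene's strand, chr6:108828391-108828640 on the plus strand for Edem1 and chr2:155729476-155729725 on the minus strand for Edem2. The Edem2 start is the outer end of the gene's annotated span, whereas the Edem1 start lies 4596 bases inside that span, so the Edem1 stretch is not upstream of the whole gene. Capitals mark CCAAT or CCACG, the outer parts of the ER stress response element, on either strand.
Edem1: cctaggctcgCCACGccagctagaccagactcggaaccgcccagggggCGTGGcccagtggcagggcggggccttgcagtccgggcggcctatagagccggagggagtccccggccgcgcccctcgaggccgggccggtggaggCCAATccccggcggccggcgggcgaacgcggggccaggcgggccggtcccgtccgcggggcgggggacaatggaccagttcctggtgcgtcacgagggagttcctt
Edem2: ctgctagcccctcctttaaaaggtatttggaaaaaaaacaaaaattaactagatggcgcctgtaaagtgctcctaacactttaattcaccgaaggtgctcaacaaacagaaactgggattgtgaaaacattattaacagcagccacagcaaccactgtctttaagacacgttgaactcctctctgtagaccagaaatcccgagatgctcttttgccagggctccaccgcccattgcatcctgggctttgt

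The Edem1 stretch holds 3 of these short motifs and the Edem2 stretch 0. Over the full windows, which add 50 bases after the start, CCAAT occurred in 4 of the 9 genes and in 37.4% of all 32851 windows, and CCACG in 5 of 9 and 32.8%. The whole element, CCAAT and CCACG with 9 bases between them, was found in 0 of the 9 windows and in 0.119% of all windows on either strand. A second form, ATTGG and CCACG with 1 base between them, and the unfolded protein response element, TGACGTGG, were also found in 0 of 9, against 0.037% and 0.676% of all windows. These letters describe the windows and say nothing about binding. The search for the short motifs was added after the values were seen.

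With TGF-beta, none of the 8 trimming and quality-control genes tested differed from unstimulated DC2.4 cells beyond the spread between samples. Of all 69 genes tested with limma at an adjusted p of 0.05, the share called was 0% in either direction. At an unadjusted p under 0.05 it was 15.9% of all genes, and 0 of the 8. Seen by their signs alone, 6 of the 8 were higher and 2 lower, with a median log2 fold change of 0.37 against 0.29 for all 69 genes. The differences, with standard errors, were 0.46 ± 0.42 for Edem3, 0.42 ± 0.64 for Man1b1, 0.42 ± 0.53 for Edem2, 0.36 ± 0.41 for Prkcsh and 0.20 ± 0.42 for Ganab, and -0.22 ± 0.72 for Mogs and -0.37 ± 0.45 for Edem1. Adjusted p lay between 0.82 and 0.95 for all 8, as fitted by limma.

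Both treated samples lay above both unstimulated ones for Edem3 and Prkcsh, 2 of the 8, and that was so for 29% of all genes tested. The 95% interval for Prkcsh ran from -0.81 to 1.54, and that for Edem3 from -0.73 to 1.64, so a rise or a fall of moderate size was not detectable here. Uggt1 differed by 0.38 ± 1.87 with an interval from -4.95 to 5.71, and its value rests on single samples. Without the first TGF-beta sample Uggt1 was 2.87 higher, and without the second it was at -2.12. Those 2 fits assume that the lone treated sample varies like the other group. Against the mean of all panel genes in place of the reference wells, 6 of these differences turned negative, among them Edem3 at -0.35 and Prkcsh at -0.44.

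**Figure D2:**
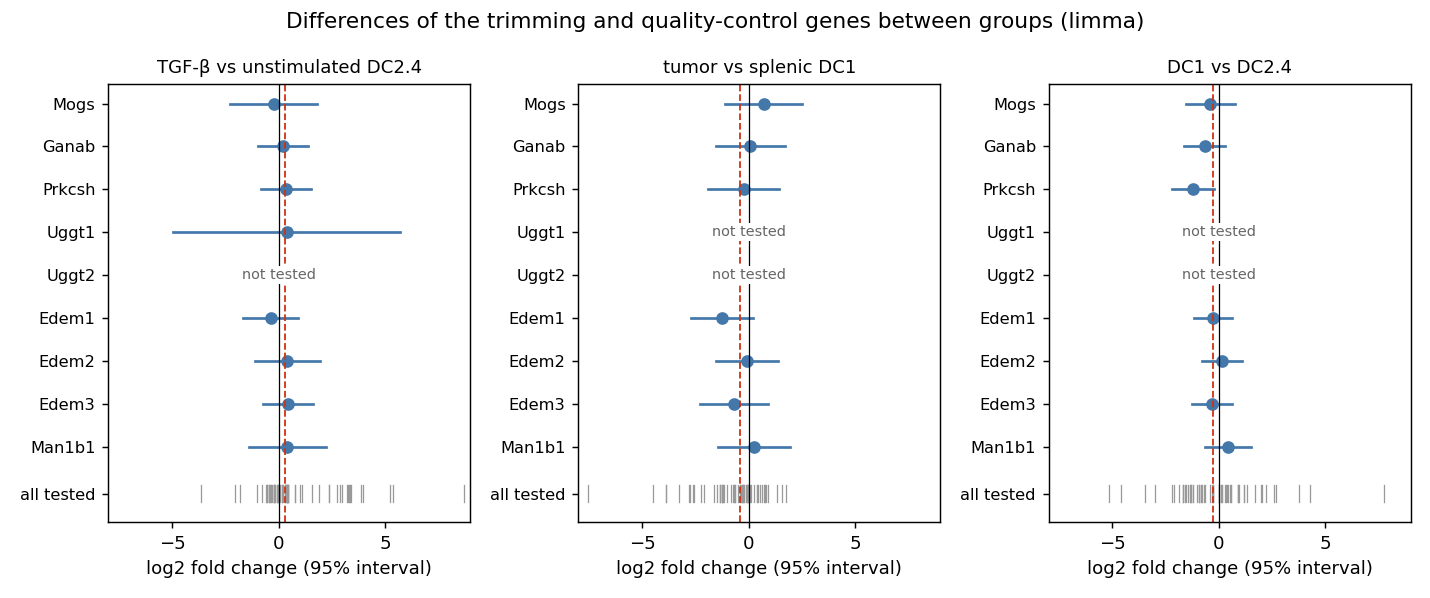
Log2 fold change (x axis) of each tested gene in the comparisons of TGF-beta with unstimulated DC2.4, tumor with splenic DC1, and DC1 with DC2.4. Points are limma estimates with 95% intervals, grey ticks all genes tested and the red dashed line their median. The interval of Prkcsh in DC1 against DC2.4, from -2.19 to -0.25, is the only one of the 22 that does not reach 0.

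In tumor against splenic DC1, the clearest difference among the 7 genes tested was in Edem1. Edem1 was 2.41-fold lower in tumor cells without passing the test. The direction comes from the plate files and labels and is not settled, because the authors' deposited table of fold changes runs the other way. The signs of all tumor against splenic values here would turn if the labels of these files were exchanged. Of 62 genes tested, 8.06% were called lower and 0% higher at an adjusted p of 0.05, and 0 of the 7 trimming and quality-control genes tested were among them. Edem1 differed by -1.27 ± 0.62 (SE, n = 2 per group; 95% interval -2.73 to 0.19, limma adjusted p = 0.30). Edem3 differed by -0.70 ± 0.68 (limma adjusted p = 0.70). For these 2 of 7 genes both tumor samples lay below both splenic samples, as they did for 41.9% of all genes tested.

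The other 5 genes overlapped between spleen and tumor. Mogs differed by 0.70 ± 0.76, Man1b1 by 0.25 ± 0.72, Ganab by 0.08 ± 0.69, Edem2 by -0.07 ± 0.62 and Prkcsh by -0.23 ± 0.71, and limma's adjusted p was 0.70 to 0.98. The median over the 7 genes was -0.07, against -0.39 over all 62. Edem3 was -0.14 without the first splenic sample and -1.26 without the second, whereas Edem1 stayed between -1.11 and -1.43 when any 1 of the 4 samples was left out.

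The reference wells did not keep a fixed spacing in DC1 cells, and the tumor comparison depends on which are used. Gapdh crossed the threshold at 22.2 and 24.1 cycles in splenic and at 25.7 and 24.1 cycles in tumor DC1, while Gusb crossed it at 25.0 and 28.1 and at 26.1 and 24.8. Against the Gusb well alone, Edem1 was -2.19, Edem3 -1.62 and Prkcsh -1.15, each past the threshold by limma with an adjusted p of 0.00018, 0.0055 and 0.047, where 38 of all 62 genes passed. Against the Gapdh well alone, Edem1 was 0.70 and did not pass, while Mogs at 2.67 and Man1b1 at 2.22 passed on the higher side with an adjusted p of 0.013 and 0.036, as 2 of 16 genes called. Against the mean of the panel genes, Edem1 was -0.64, and only Mogs passed, 1.33 higher with an adjusted p of 0.041, among 20 of 62 genes called. Edem1 kept its lower sign under 10 of the 11 other choices of reference, the Gapdh well alone being the exception.

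**Figure D3:**
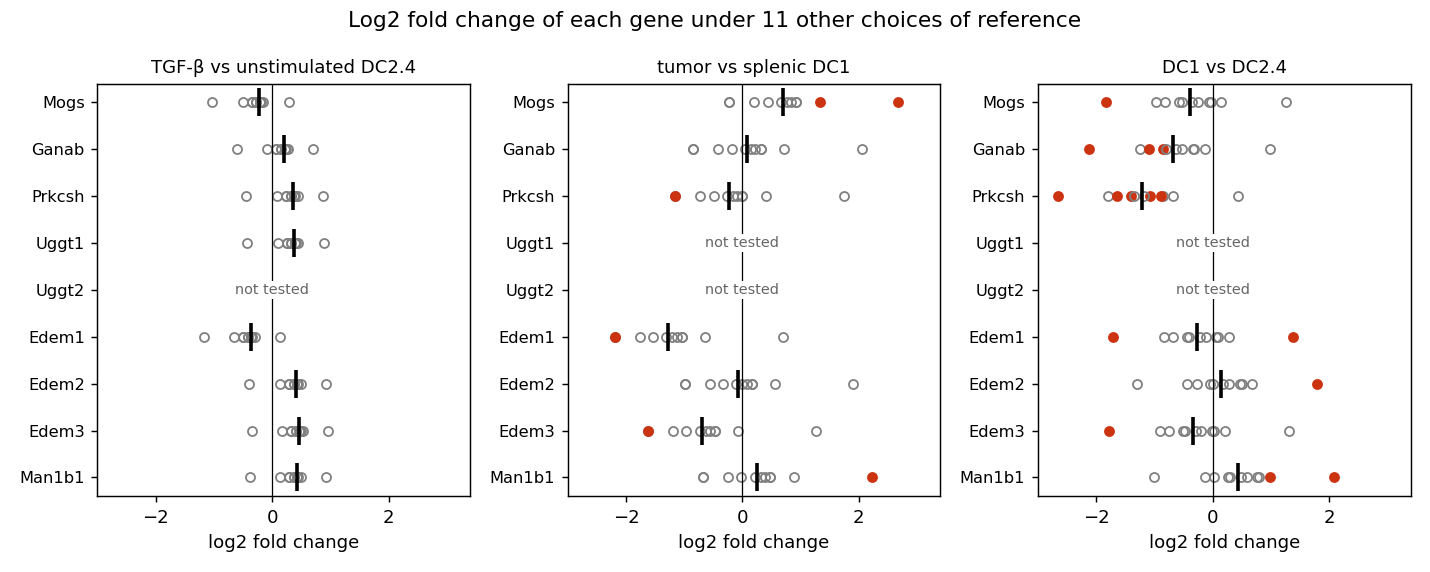
Log2 fold change (x axis) of each gene under the mean of 5 reference wells (black bar) and under 11 other choices of reference (points), for the 3 comparisons. Filled red points passed an adjusted p of 0.05 in limma and open grey points did not. In tumor against splenic DC1 the values of Edem1 run from -2.19 to 0.70.

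The response to TGF-beta and the difference between tumor and spleen were set against each other in 1 fit over the 8 samples. No gene of the 7 tested differed between them, while 1.61% of 62 genes were called higher and 16.1% lower. The largest gaps among the 7 were -1.16 ± 0.85 for Edem3, 0.92 ± 1.05 for Mogs and -0.90 ± 0.80 for Edem1. Their limma adjusted p was 0.49, 0.71 and 0.63. Against the Gusb well alone Edem3 was -2.03 and passed, with an adjusted p of 0.039, where 19 of 62 genes did. With the tumor and splenic samples exchanged, a setting chosen after seeing the data, the gaps were 1.64 for Edem1, -0.48 for Mogs and 0.24 for Edem3, and 0 of 62 genes passed.

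Among the 7 trimming and quality-control genes tested, DC1 and DC2.4 cells differed most in Prkcsh, the glucosidase II beta subunit. Prkcsh was 2.33-fold lower in DC1 cells and fell just short of the threshold. Its log2 difference was -1.22 ± 0.44 (SE, n = 4 against 4; limma adjusted p = 0.053), where 12.9% of 62 genes were called higher and 21% lower, and 0 of the 7 trimming and quality-control genes. The 4 DC1 samples all lay below the 4 DC2.4 samples, as they did for 16.1% of genes tested. An exact two-sided permutation test gave p = 0.0286, the smallest that 4 against 4 samples allow, and 0.104 after adjustment over all 62 genes. Here and below, such a test pools both groups of each side and treats samples as independent, although they may be technical repeats. Ganab, the partner subunit, was -0.67 ± 0.43 with 1 pair of samples overlapping at the edge (limma adjusted p = 0.22, exact permutation p = 0.057). The other 5 genes lay between -0.39 for Mogs and 0.44 for Man1b1, and the median of the 7 was -0.33 against -0.28 for all 62.

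Small changes in the fit moved Prkcsh across the threshold. It passed, at the lower side, in 5 of 11 other choices of reference, at -2.66 against Actb alone, -1.40 against Gusb alone, -1.63 without Gapdh, -1.08 without B2m and -0.89 against the panel mean. Under these choices 36, 34, 34, 27 and 29 of all 62 genes passed, in the same order. Against Gapdh alone it was 0.43 and did not pass. It was -1.56 without the first splenic sample and -0.88 without the second.

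Ratios of genes within a sample do not move with the reference wells. Since primers differ in efficiency, such ratios can still move with the amount of template. Edem1 over Edem2 had log2 ratios of 2.18 and 1.96 in unstimulated cells and 1.45 and 1.12 with TGF-beta, and of 1.86 and 1.88 in splenic and 0.64 and 0.71 in tumor DC1. The ratio was thus lower with TGF-beta than without, by a difference of -0.79 (pooled SD 0.20), and lower in tumor than in spleen, by -1.20 (pooled SD 0.034), with no overlap in either comparison. With 2 samples per group an exact permutation test cannot go below p = 0.333. Among 1596 pairs of panel genes the groups did not overlap in 52.1% for TGF-beta and in 71.7% for tumor, and 8.65% did so in both with the same direction. That both went the same way was seen after the values were known, and it rests on the labels of the DC1 files. With the tumor and splenic samples exchanged the tumor ratio would be higher instead, and 33.1% of pairs did not overlap in both comparisons with opposite directions. Between DC1 and DC2.4 cells the ratio differed by -0.40 with overlap (exact permutation p = 0.34).

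Edem3 over Edem2 was lower in tumor DC1, at -1.73 and -1.54, than in splenic DC1, at -0.59 and -1.42, by -0.63 (pooled SD 0.42), and it overlapped between the DC2.4 groups. The ratio of the glucosidase II subunits was followed as well. Ganab over Prkcsh was 0.40 and 0.05 in unstimulated and 0.10 and 0.02 in TGF-beta DC2.4 cells, and 0.41 and 0.66 in splenic and 1.12 and 0.57 in tumor DC1. The log2 ratio was 0.55 higher in DC1 than in DC2.4 cells without overlap, although the highest DC2.4 and the lowest DC1 sample nearly touched. Ganab Ct ran from 20.9 to 25.7 in DC2.4 and from 26.3 to 29.4 in DC1 cells. Cell type and amount of template therefore cannot be told apart for this ratio. The exact permutation p was 0.0286, or 0.083 adjusted over the 1596 pairs, of which 34.4% did not overlap. Mogs over Ganab overlapped in all 3 comparisons.

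**Figure D4:**
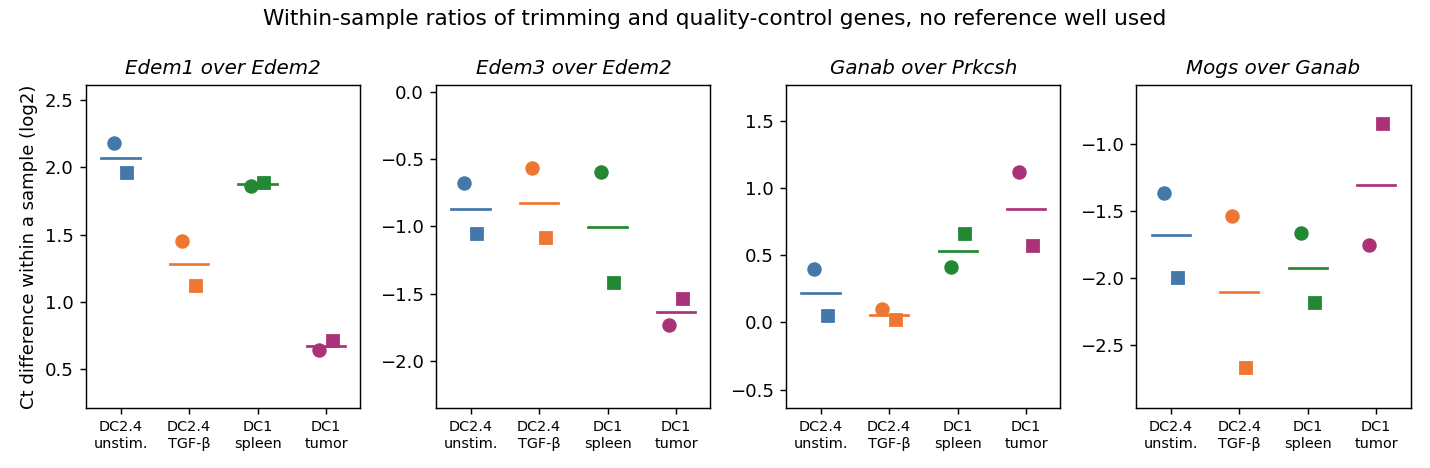
Within-sample log2 ratios (y axis) of Ganab over Prkcsh, Edem1 over Edem2, Edem3 over Edem2 and Mogs over Ganab in the 4 groups. Circles are replicate 1, squares replicate 2 and bars their mean of 2 samples. Edem1 over Edem2 is 1.96 or more in unstimulated and 1.45 or less in TGF-beta DC2.4 cells, and 1.86 or more in splenic and 0.71 or less in tumor DC1.

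Of the 9 genes, 7 varied less over the 8 samples than the panel's median gene, against the mean of the 5 reference wells. Other references were not used for these ranges. The range of the relative log2 level was 1.09 for Edem2, 1.35 for Edem3, 1.53 for Ganab and Man1b1, 1.57 for Edem1, 2.08 for Prkcsh and 2.17 for Mogs. The median of these 7 ranges was 1.53, against 2.47 over 57 genes, and all 7 lay below 2.47. Those 57 had a Ct under 35 in all 8 samples and none of the wells for which genes were left out of the tests. Uggt1 and Uggt2 are not among the 57, and Uggt1 ranged over 4.99 in its 7 undoubted samples, more than that median. The patterns nearest to each other were those of Ganab and Prkcsh, with a root mean square difference of 0.35 after centring, and Edem1 and Mogs were farthest apart at 0.97. Among 50 other genes, C1galt1c1 (0.33), Pomt1 (0.36) and Nagpa (0.39) lay nearest to the median pattern of the 7 genes over the 8 samples. Of the 7 themselves, whose own values make up that median, Ganab lay at 0.16 and Edem3 at 0.29 from it. The rest lay farther from it than those other genes, from 0.43 for Prkcsh to 0.62 for Man1b1. C1galt1c1 is the chaperone of the T-antigen synthase, Pomt1 an O-mannosyltransferase of the ER, and Nagpa the enzyme that uncovers the lysosomal mannose 6-phosphate tag.

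Later N-glycan trimming and the first steps to complex glycans take place mainly in the Golgi, through Man1a, Man1a2, Man1c1, Man2a1, Man2a2, Mgat1 and Mgat2. With TGF-beta 0 of these 7 passed, the largest difference being -1.01 ± 0.59 for Man1c1, an alpha-mannosidase. In tumor against splenic DC1 0 of 7 passed, and Man1c1 was again the largest at -2.81 ± 0.77 (limma adjusted p = 0.066). Between both responses 0 of 7 differed, with Man2a1, which trims mannose after Mgat1 has acted, at -2.13 ± 1.01. In DC1 against DC2.4 cells 2 of 7 passed, both lower, where 21% of all 62 genes tested were called lower. Man1a2 was at -1.68 ± 0.47 and Man1c1 at -1.67 ± 0.51, with limma adjusted p of 0.019 and 0.022. An exact permutation test gave p = 0.0286 and 0.2, or 0.104 and 0.335 adjusted over all 62 genes. The low Man1c1 values were those of tumor DC1, at -8.69 and -7.59. Splenic DC1, at -4.63 and -6.04, lay within the DC2.4 range of -4.41 to -6.15.

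The authors' deposited table gives 3 fold changes per gene and comparison, normalized to beta-actin, and does not say which samples enter each. For tumor over spleen, the authors' deposited table lists 1.88, 1.88 and 1.87 for Edem1 and 0.449, 0.445 and 0.460 for Mogs. With the Actb well alone as reference, as in that table, the plate files gave log2 differences of -2.19 for Edem1 and -0.22 for Mogs. The mean log2 value in the authors' deposited table and the difference from the plate files added up to nearly the same number for all 7 genes, from -1.37 for Mogs to -1.27 for Edem3. For these genes the authors' deposited table is thus the plate-file difference with its sign turned and an offset, and a shared sign, as for Mogs, Ganab, Prkcsh, Edem2 and Man1b1 against Actb, does not show the same direction. Across the 62 genes tested the authors' deposited table and the plate files correlated at r = -0.82 for tumor over spleen, and across 69 genes at r = 0.95 for TGF-beta, where genes are not independent replicates and share the Actb well. For TGF-beta over untreated cells the authors' deposited table lists 0.18, 0.11 and 4.71 for Uggt1, which lie on both sides of 1. It lists 0.70, 0.44 and 0.775 for Edem1, all under 1, and Edem1 was also lower in the plate files. For every gene described here, the middle entry was below the entry before it by nearly the same factor. The 3 entries of a gene may therefore not be separate readings. Apart from Uggt2, with all entries above 1, the other genes had entries on both sides of 1. Among them were Edem3 (1.26, 0.79 and 1.375) and Prkcsh (1.5, 0.94 and 1.3), both higher in the plate files.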

How the data were processed

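Per the labels' protocols, 50 to 100 ng of RNA was reverse transcribed and amplified with SYBR Green on a commercial 96-well array. The authors deposited a Ct value per well, with baseline cycles 3 to 15 and a threshold of 0.2 per the file headers. The deposited series matrix gives Ct minus the beta-actin Ct, a log2 scale on which higher means less RNA. The authors' fold-change table gives a ratio of test over control, per the file headers.

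Wells were named through the series matrix. The names B2m, Gapdh, Gusb and Hsp90ab1 for the last 4 reference wells come from the manufacturer's usual layout, not from the files. Values in the third splenic and second tumor files were moved by 1 well, which raised the correlation with the second splenic file from 0.335 to 0.976 and from 0.376 to 0.843. The third file of each group was left out, since within 0.002 cycles it held the mean of the other 2 divided by 1.1 (unstimulated) or 1.08 (TGF-beta), or multiplied by 1.021 (both DC1 groups). Which step made it was not tested.

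Ct over 35 or blank was set to 35. Genes entered a test with 2 or more of 4 samples (4 or more of 8 in fits over all groups) earlier than Ct 35. Genes with a doubtful well in the groups compared were left out. So were genes whose third-file well departed from the relation above in those groups, although that file was not used. With no gene left out, 74 were tested for TGF-beta and 71 for tumor against splenic DC1. The test was limma 3.58.1 in R 4.3.3 (two-sided), adjusted by Benjamini-Hochberg over all genes tested, threshold 0.05. Files were parsed in Python 3.11.15 with pandas 2.3.3 and plotted with matplotlib 3.10.9. Alternatives changed the reference wells, late Ct, the filter, the variance model, the samples and the source of values. Precision is limited by the number of samples, since Ct carries no count.

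The genes, lists and tests were chosen with earlier results of these data known. All 9 genes are named throughout, 7 other trimming genes as counts and by name where they passed or, if none did, for the largest difference, and the 3 genes of nearest pattern. Promoters were matched by symbol for 9 of 9 genes. Protein sequences were not used here.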

Additional observations from a re-analysis of the deposited data

How the results depend on the processing

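The differences of single genes in log2 units were small against the choice of reference. Of the alternative values 100 changed sign, 645 kept sign and side of the threshold and 29 newly passed with their sign kept. In 1 of the 100, Edem1 in DC1 against DC2.4 at 1.39 with the Gapdh well alone, the turned value passed. None of the trimming and quality-control genes passed under the main settings, so none of them could be lost. The number of trimming and quality-control genes that passed in the tumor comparison, 0, became 2 against the Gapdh well alone, 3 against Gusb alone, 1 against the mean of panel genes and 1 (Edem1) with all deposited files, where 16, 38, 20 and 21 of all 62 genes passed. In DC1 against DC2.4 the 0 became 5 against Actb alone, 3 against Gapdh alone, 2 against Gusb alone, 1 against Hsp90ab1 alone, 1 against the panel mean, 1 without B2m and 2 without Gapdh among the references. Under these settings 36, 33, 34, 26, 29, 27 and 34 of all 62 genes passed, in the same order. It was also 1 with Ct under 35 required in every sample, 1 with a robust prior and trend and 2 with all deposited files. There 23 of 57, 27 of 62 and 39 of 62 genes passed, in the same order. Leaving out 1 sample moved Prkcsh from -1.56 to -0.88 and Ganab from -0.95 to -0.39. For the difference of both responses the number that passed was 1 against Gusb alone, where 19 of all 62 genes passed. In the TGF-beta comparison Uggt1 moved from -2.12 to 2.87 with 1 sample left out. The third files held the mean of the others times or divided by a constant in 319 of 355 wells. In those wells they add no independent spread. With all deposited files more of all genes tested passed in every comparison. The cause of this and of the other changes was not tested. Leaving out 1 sample moved the log2 ratio of Edem1 over Edem2 from -0.95 to -0.62 in the TGF-beta comparison and from -1.23 to -1.17 in the tumor comparison.

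Over all genes the number called in the TGF-beta comparison rose from 0 to 5 with late Ct left out or Ct under 35 in every sample, 7 with the robust prior, 6 with all 8 samples in 1 fit, 13 with all deposited files, and 0 to 16 with 1 sample left out. In the tumor comparison 5 became 0 with the series matrix and 38 against Gusb alone, the lowest and highest, and 3 to 16 with 1 sample left out. Of the difference of both responses 11 became 0 with the series matrix and 19 against Gusb alone, and in DC1 against DC2.4 21 became 1 with the series matrix and 39 with all deposited files. The median of all genes in the tumor comparison moved from -0.39 to 1.58 against Gapdh alone and to -1.32 against Gusb alone. With every gene kept, Uggt1 was 1.24 in tumor against splenic DC1, and 0.36 with the doubtful splenic well missing.

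Log2 differences that changed sign follow. Against the Actb well alone, the values were Ganab -0.84, Man1b1 -0.67 and Mogs -0.22 in the tumor comparison, and Edem2 -1.301 and Man1b1 -1.0 in DC1 against DC2.4. Against the B2m well alone, the values were Edem1 0.14 and Mogs 0.29 in the TGF-beta comparison, and Ganab -0.18 and Man1b1 -0.0145 in the tumor comparison. Edem2 was -0.43 and Man1b1 -0.13 in DC1 against DC2.4. Against Gapdh alone, the value was Ganab -0.085 in the TGF-beta comparison. Edem1 was 0.70, Edem2 1.90, Edem3 1.27 and Prkcsh 1.74 in the tumor comparison. Edem1 was 1.36, Edem2 1.77, Edem3 1.10, Ganab 2.14, Man1b1 2.09 and Prkcsh 1.66 in the difference of responses. Edem1 was 1.39, Edem3 1.32, Ganab 0.98, Mogs 1.26 and Prkcsh 0.43 in DC1 against DC2.4. Against Gusb alone, the values were Ganab -0.84, Man1b1 -0.67 and Mogs -0.23 in the tumor comparison, and Edem2 -0.0355 in DC1 against DC2.4. Against Hsp90ab1 alone, the values were Edem2 0.0723 in the tumor comparison, and Ganab 0.0695 and Man1b1 0.0182 in the difference of responses. Edem1 was 0.28, Edem3 0.21 and Mogs 0.15 in DC1 against DC2.4. With all deposited files, the value was Edem2 -0.0369 in DC1 against DC2.4. With the series matrix, the values were Edem3 1.89, Ganab -1.23 and Man1b1 -1.23 in the tumor comparison, and Edem3 1.56 in the difference of responses. Edem2 was -1.12 and Man1b1 -1.28 in DC1 against DC2.4. The series matrix keeps the second tumor file unmoved, so its values there, Edem3 among them, stand 1 well off. Against the panel mean, the values were Edem2 -0.39, Edem3 -0.35, Ganab -0.61, Man1b1 -0.39, Prkcsh -0.44 and Uggt1 -0.43 in the TGF-beta comparison. Edem2 was 0.56 and Prkcsh 0.40 in the tumor comparison. Edem1 was 0.31, Edem2 0.72, Edem3 0.0475, Ganab 1.08, Man1b1 1.03 and Prkcsh 0.61 in the difference of responses. Edem1 was 0.066 in DC1 against DC2.4. Without the Actb well, the values were Edem2 0.16 and Prkcsh 9e-04 in the tumor comparison, and Ganab 0.0803 and Man1b1 0.029 in the difference of responses. Edem1 was 0.0977 and Edem3 0.0272 in DC1 against DC2.4. Without the B2m well, the values were Ganab 0.0747 and Man1b1 0.0234 in the difference of responses. Without the Gapdh well, the values were Ganab -0.41 and Man1b1 -0.24 in the tumor comparison, and Edem2 -0.27 in DC1 against DC2.4. Without the Gusb well, the values were Edem2 0.16 and Prkcsh 0.0012 in the tumor comparison, and Ganab 0.10 and Man1b1 0.0491 in the difference of responses. With the tumor and splenic samples exchanged, Edem1 was 1.64, Edem3 0.24 and Mogs -0.48 in the difference of responses, a setting chosen after seeing the data. Leaving out 1 sample moved Edem2 from -0.0151 to 0.85, Man1b1 from -0.17 to 1.01, Mogs from -0.95 to 0.50 and Uggt1 from -2.12 to 2.87 in the TGF-beta comparison. It moved Edem2 from -0.26 to 0.12, Ganab from -0.48 to 0.64, Man1b1 from -0.40 to 0.90, Mogs from -0.12 to 1.52 and Prkcsh from -0.91 to 0.45 in the tumor comparison. It also moved Ganab from -0.68 to 0.44, Man1b1 from -0.82 to 0.48 and Prkcsh from -1.28 to 0.0875 in the difference of responses, and Edem2 from -0.0746 to 0.36 and Mogs from -0.80 to 0.0141 in DC1 against DC2.4. No paired analysis was possible because the labels give no replicate numbers that link samples of different groups.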
